A study of Homo sapiens with 6 samples.

Results

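The genes described here make cholesterol and fatty acids, regulate that synthesis, or move and store its products. They are 46 genes chosen by name, and 36 of them had a probe set annotated to that 1 symbol on the array. The other 10 had none and are not analysed here: FDFT1, LSS, CYP51A1 and SC5D among the sterol enzymes, ME1 and ACSL3 in fatty acid metabolism, and the sterol carriers NPC1, NPC2, ABCA1 and ABCG1. A gene with more than 1 probe set is represented by its brightest, by mean over the 6 arrays. The 36 fell into 7 mevalonate pathway genes, 7 sterol enzymes, 15 fatty acid genes, 5 regulators and 2 genes of sterol transport and storage, out of 14884 named genes on the array.

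Expression was measured in BE(2)-C_tetoff_KDM4C cells, a derivative of the human neuroblastoma line BE(2)-C with an inducible construct for KDM4C, a demethylase of histone H3 lysine 9. In a tet-off system doxycycline silences the construct. Both groups carried the construct and were grown in the same medium with dialyzed serum: 3 arrays came from cells with doxycycline for 6 days (construct off) and 3 from cells without it for 6 days (construct on). The labels name 1 line without saying whether it is a single clone, and arrays of cells without the construct were not analysed here, so the effects of KDM4C induction and of doxycycline withdrawal cannot be told apart. The 3 samples of a group are called independent, with no statement that they were separate cultures, so the p-values measure the spread between these samples. In bulk RNA, a change in the share of cells that express a gene and a change within each cell cannot be told apart either.

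The arrays were on a common scale, with medians of 3.94 to 3.96 on the log2 scale and between-array correlations of 0.990 to 0.993. KDM4C lay at 7.71, 7.77 and 7.80 with doxycycline and at 8.97, 9.08 and 9.02 without it (log2 difference 1.27, SE 0.07, limma adjusted p = 0.0079), which is the direction of the labels. Leaving out replicate 1 or 2 with doxycycline, or replicate 2 or 3 without it, ended that call (limma adjusted p = 0.0597 to 0.0696) at a similar difference. Its probe set does not separate the construct from the endogenous gene. Of 11 neuroblastoma markers 10 had a named probe set, and all 10, among them HAND2, GATA3, DBH and TH, lay above the median probe set, at 8.56 to 12.32. None of the 10 passed limma's adjusted test. At an unadjusted limma p under 0.05 were 5 of the 10, where 14.4% of named genes were. Of the 5, CHGA, CHGB and STMN2 were lower (log2 differences -0.40, -0.34 and -0.23) and TH and DBH higher (0.34 and 0.28) without doxycycline. The endothelial markers PECAM1, VWF and KDR lay at 2.77 to 3.38 and the monocyte marker CD14 at 3.37 to 3.75, below the median probe set of 3.94. Of 5 epithelial markers 4 were measured: KRT18 lay at 7.40 to 7.56 and EPCAM, KRT8 and KRT19 at 3.18 to 4.88. Of 7 fibroblast-type markers 3 were measured, all above the median probe set, and LUM was the 1 with an unadjusted p under 0.05, at 11.32 to 11.40 with and 11.01 to 11.09 without doxycycline. STAR, 1 of 5 steroid cell markers and the 1 measured, which carries cholesterol into mitochondria in steroid-producing cells, lay at 3.60 to 3.88 with and 4.01 to 4.17 without. The part of these marker shifts in the results below was not tested.

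Cholesterol is built from acetyl-CoA through the mevalonate pathway, which leads to farnesyl diphosphate, and then through squalene and a series of sterols. When sterols in the endoplasmic reticulum are scarce, SCAP escorts the SREBP transcription factors to the Golgi, where they are cut and released to switch on these genes, while INSIG proteins hold them back when sterols are plentiful. Fatty acids are built from cytosolic acetyl-CoA by acetyl-CoA carboxylase and fatty acid synthase, and are then elongated, desaturated and activated with coenzyme A. Growing tumour cells are known to use both routes to make membranes.

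No gene of the 36 passed the test over the whole array. The measured differences of all 7 mevalonate genes were positive, by 0.09 to 0.62 on the log2 scale, and those of the 15 fatty acid genes ran from -0.21 to 0.40. Of the 36 genes, 27 had positive log2 differences (without minus with doxycycline) and 9 negative ones, a positive share of 75% against 49.4% over all named genes. The median log2 difference was 0.11, against -0.002 over all named genes. That test was limma's, at a Benjamini-Hochberg adjusted p under 0.05 over all probe sets, a threshold passed by 0.341% of all probe sets and by 0.564% of named genes. At an unadjusted limma p under 0.05, 11 were higher and 1 was lower without doxycycline. Those are 30.6% and 2.78% of the 36, where 7.57% and 6.87% of named genes were called higher and lower by that rule. The groups of 3 arrays did not overlap for 16 genes on the higher side (44.4%) and 3 on the lower side (8.33%), against 12.1% and 12.5% of named genes. These shares describe genes that were picked with earlier results of these data known, and they carry no test of their own.

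**Figure D1:**
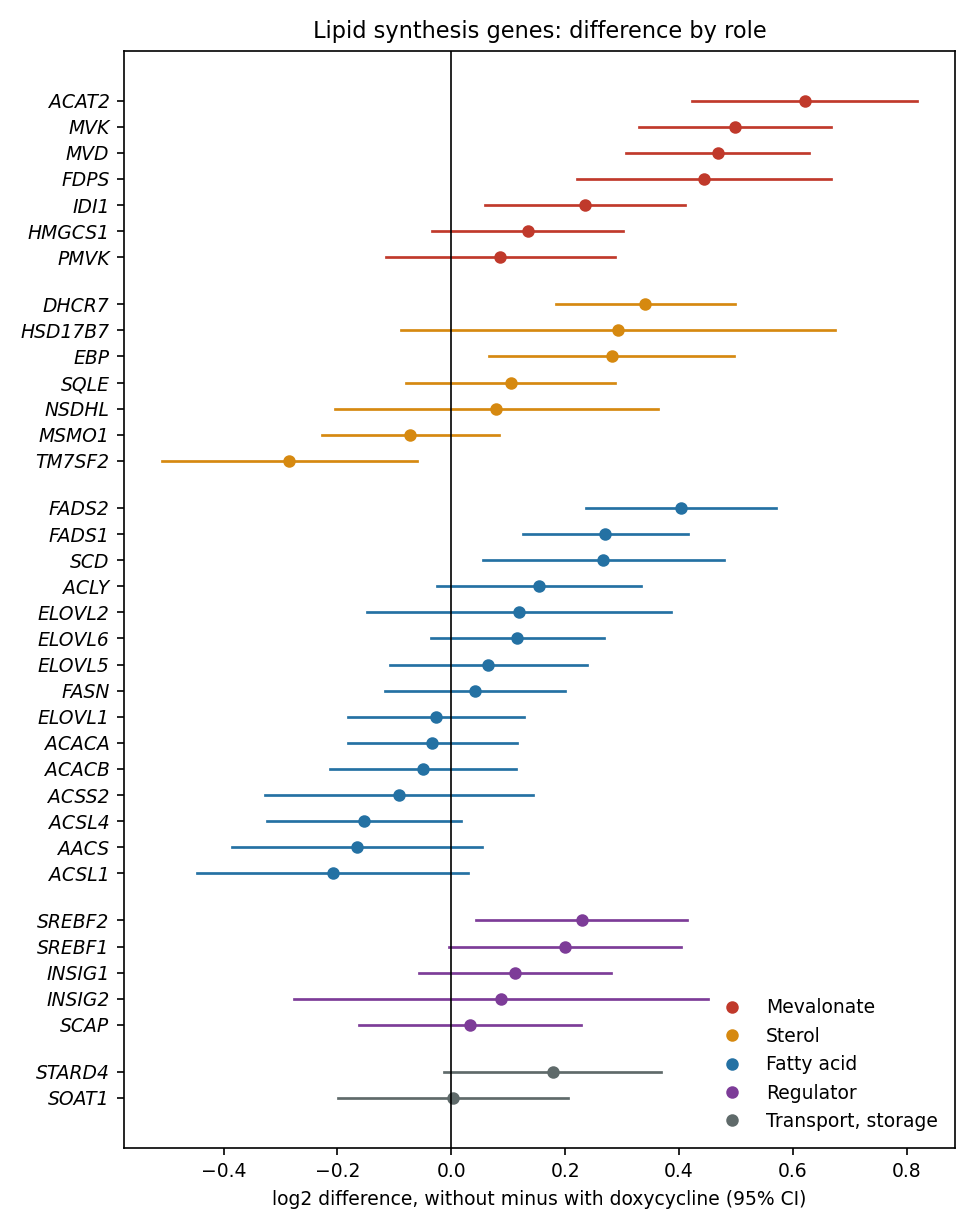
Log2 difference (without minus with doxycycline) of each of the 36 genes with its 95% confidence interval from the limma fit, ordered by size within each role. All 7 mevalonate genes lie right of 0, from 0.09 to 0.62, while the 15 fatty acid genes lie on both sides, from -0.21 to 0.40.

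The mevalonate genes had the highest median of the 5 roles. All 7 were positive, with a median of 0.44. At an unadjusted p under 0.05, 5 were higher (71.4%, against 7.57% of named genes). The groups did not overlap for 6, all on the higher side (85.7%, against 12.1% of named genes). These shares too carry no test. ACAT2, the cytosolic thiolase that joins acetyl-CoA units at the start of the pathway, lay at 7.16, 7.18 and 7.16 with doxycycline and at 7.89, 7.83 and 7.64 without it. Every array without doxycycline was higher, and the arrays with doxycycline lay close to each other. The means were 7.17 ± 0.01 and 7.79 ± 0.13 (SD, n = 3 each). The difference of 0.62 (SE 0.08, 1.54-fold) had a limma adjusted p of 0.0501, just outside the threshold.

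MVK and MVD, mevalonate kinase and the decarboxylase that ends in isopentenyl diphosphate, had group differences of similar size. MVK lay at 6.39, 6.37 and 6.26 with doxycycline and at 6.77, 6.87 and 6.87 without it (difference 0.50, SE 0.07, 1.41-fold, limma adjusted p = 0.0565). MVD lay at 5.15, 5.20 and 5.27 with doxycycline and at 5.71, 5.70 and 5.61 without it (difference 0.47, SE 0.07, 1.38-fold, limma adjusted p = 0.0580). In both genes the 2 groups stood apart by more than the spread within either. When the dimmer part of the probe sets was left out of the limma fit, ACAT2, MVK and MVD passed (limma adjusted p = 0.0390, 0.0421 and 0.0421). MVK also passed after quantile normalization (limma adjusted p = 0.0489) and ACAT2 with trend and robust moderation (limma adjusted p = 0.0261). Over the whole array, 311 of 26808 probe sets passed without the dimmer part, against 183 of 53617 in the main fit. With quantile normalization 183 passed, and with trend and robust moderation 385. Over all alternatives, limma adjusted p ran from 0.0261 to 0.191 for ACAT2, from 0.0421 to 0.211 for MVK and from 0.0421 to 0.222 for MVD. With any 1 array left out none of them passed, and their differences stayed between 0.57 and 0.70, 0.46 and 0.53, and 0.44 and 0.50.

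FDPS, farnesyl diphosphate synthase, which supplies both sterols and protein prenylation, lay at 6.00, 6.15 and 6.31 with doxycycline and at 6.53, 6.67 and 6.59 without it. The groups did not overlap, although the arrays with doxycycline spread from 6.00 to 6.31 (difference 0.44, SE 0.09, 1.36-fold, limma adjusted p = 0.144). Its dimmer second probe set had a log2 difference of 0.27 in the same direction, also with groups apart. IDI1, which isomerizes isopentenyl diphosphate, lay at 7.10, 7.14 and 7.11 with and 7.43, 7.23 and 7.39 without doxycycline (difference 0.23, SE 0.07, limma adjusted p = 0.275). HMGCS1, which makes HMG-CoA and is a standard SREBP target, lay at 7.14, 7.22 and 7.29 with and 7.30, 7.34 and 7.41 without doxycycline. Its groups were apart by less than the spread within either, and the 95% confidence interval of the difference of 0.13 was -0.03 to 0.30. PMVK, the kinase between MVK and MVD, was at 0.09 with overlapping groups (95% confidence interval -0.11 to 0.29). The differences of HMGCS1 and PMVK were smaller than those of ACAT2, MVK, MVD and FDPS, a contrast between genes that was not tested.

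**Figure D2:**
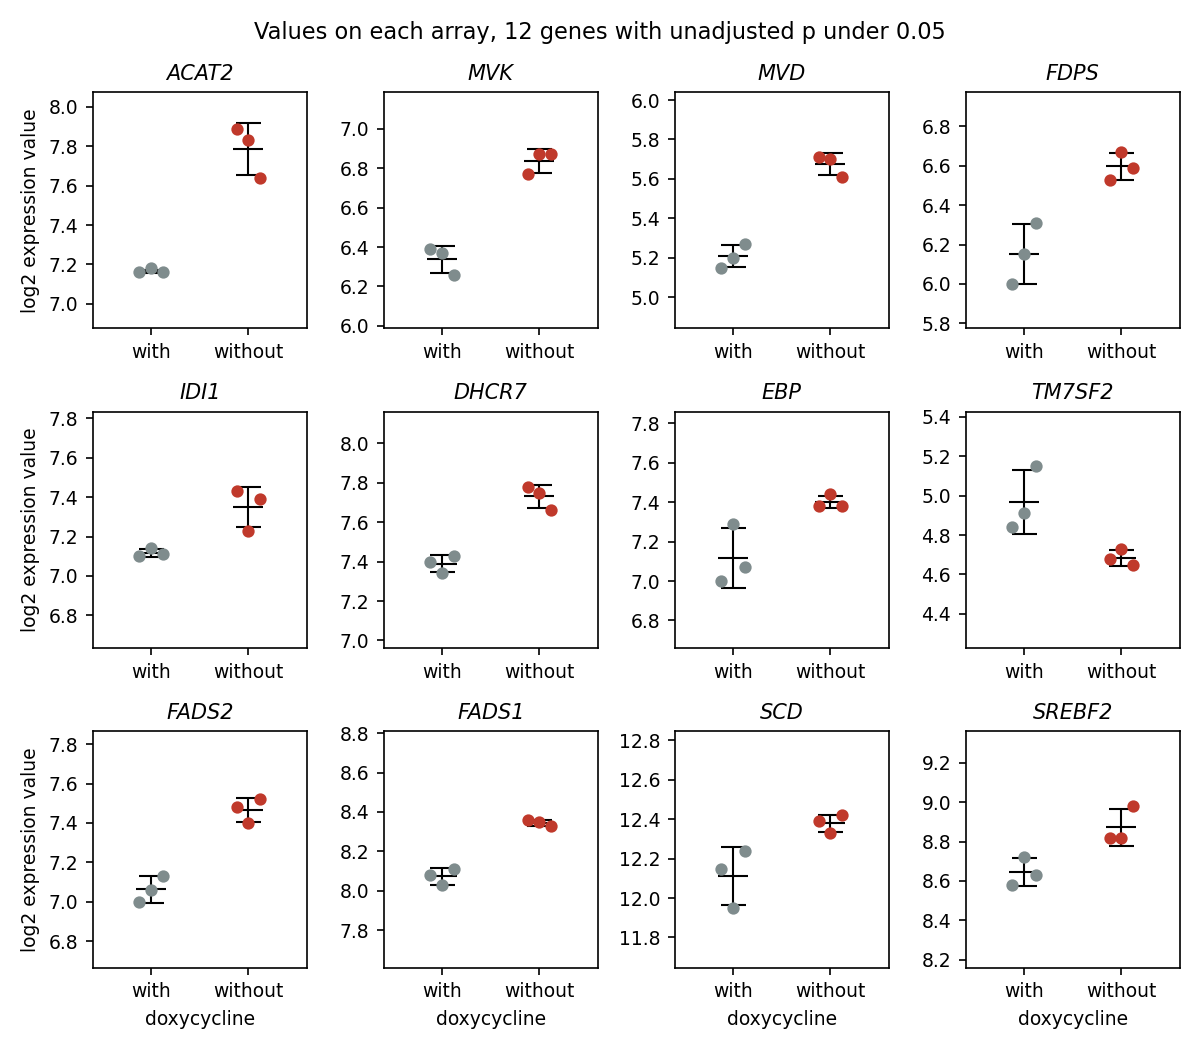
Log2 expression values on each array for the 12 genes with an unadjusted limma p under 0.05, with doxycycline (grey) and without it (red); points are single arrays, and bars give the mean and SD of 3. Each panel spans the same log2 range around its own mid-level; the groups do not overlap in any panel, and TM7SF2 is the only one of the 12 with the lower values without doxycycline.

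The sterol enzymes, which turn squalene into cholesterol, were mixed. Of 7 measured, 5 had positive and 2 negative differences, with a median of 0.10 (0.20 without doxycycline-treated replicate 2). Of the 7, 2 were higher and 1 lower at an unadjusted p under 0.05, where 7.57% and 6.87% of named genes were. DHCR7, the reductase of the last step of the Kandutsch-Russell route, lay at 7.40, 7.34 and 7.43 with doxycycline and at 7.78, 7.75 and 7.66 without it. The arrays without doxycycline were all above those with it (difference 0.34, SE 0.07, 1.27-fold, limma adjusted p = 0.119). EBP, the sterol isomerase upstream of it, lay at 7.0, 7.29 and 7.07 with and at 7.38, 7.44 and 7.38 without doxycycline (difference 0.28, SE 0.09, limma adjusted p = 0.280). Of the arrays with doxycycline, replicate 2 came closest to the other group in EBP.

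TM7SF2, a sterol C14 reductase, went the other way. Its values were 4.84, 4.91 and 5.15 with doxycycline and 4.68, 4.73 and 4.65 without it (difference -0.28, SE 0.09, 1.22-fold lower, limma adjusted p = 0.294). LBR, the nuclear envelope protein with the same reductase activity, was at 0.18 (limma adjusted p = 0.384). SQLE, squalene epoxidase and a rate-limiting step, was at 0.10 (95% confidence interval -0.08 to 0.29), and NSDHL and MSMO1, enzymes that remove the C4 methyl groups, were at 0.08 (-0.20 to 0.36) and -0.07 (-0.23 to 0.08). HSD17B7, which works with NSDHL, was at 0.29 with overlapping groups and the widest interval of the 7 (-0.09 to 0.67). It has a near-identical pseudogene copy, so its value is uncertain.

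RefSeq promoter windows (GRCh38.p14) were available for 33 of the 36 genes, and the 250 bases upstream of the start were searched on both strands. They were searched for CCAAT, the box bound by NF-Y, which works beside SREBP at many sterol genes, for the sterol regulatory element TCACNCCAC, and for the E-box CACGTG. The box was found in 26 of 48 windows of these genes (54.2%), against 32.0% of 35116 windows in the table; several windows belong to genes with more than 1 start. The sterol element was found in 2 of 48 (4.17%, in SREBF2 and ACSL1) against 0.883%, and the E-box in 3 of 48 (6.25%) against 6.34%. A match describes letters in the window and does not show binding. The windows below include those of the mevalonate and sterol genes with the smallest p among those the table holds. TM7SF2 is shown as the gene with the largest negative difference of the 36. SREBF2 was added after the search as 1 of the 2 genes with the sterol element. The other, ACSL1, with a log2 difference of -0.21, is not shown. Capitals mark matches to the box and to the sterol element, read on either strand. MVK lies at chr12:109573544-109573793 on the plus strand, MVD at chr16:88663092-88663341 on the minus strand, FDPS at chr1:155308616-155308865 on the plus strand, DHCR7 at chr11:71448394-71448643 on the minus strand (the first of its 2 starts in the table), TM7SF2 at chr11:65111622-65111871 on the plus strand and SREBF2 at chr22:41832855-41833104 on the plus strand.
MVK: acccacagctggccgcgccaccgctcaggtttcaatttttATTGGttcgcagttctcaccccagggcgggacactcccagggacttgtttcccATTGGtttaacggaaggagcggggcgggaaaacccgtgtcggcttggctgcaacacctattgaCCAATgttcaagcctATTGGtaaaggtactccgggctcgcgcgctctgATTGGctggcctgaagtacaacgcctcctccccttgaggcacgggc
MVD: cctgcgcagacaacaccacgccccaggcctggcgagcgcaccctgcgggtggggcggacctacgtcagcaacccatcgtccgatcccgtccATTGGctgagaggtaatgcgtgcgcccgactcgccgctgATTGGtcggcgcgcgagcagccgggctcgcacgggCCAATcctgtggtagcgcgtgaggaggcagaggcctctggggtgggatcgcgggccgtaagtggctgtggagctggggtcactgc
FDPS: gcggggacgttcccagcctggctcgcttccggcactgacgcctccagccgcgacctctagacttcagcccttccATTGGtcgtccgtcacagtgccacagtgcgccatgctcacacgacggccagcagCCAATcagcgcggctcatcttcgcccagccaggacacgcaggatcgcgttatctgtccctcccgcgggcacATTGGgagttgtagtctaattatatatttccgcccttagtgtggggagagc
DHCR7: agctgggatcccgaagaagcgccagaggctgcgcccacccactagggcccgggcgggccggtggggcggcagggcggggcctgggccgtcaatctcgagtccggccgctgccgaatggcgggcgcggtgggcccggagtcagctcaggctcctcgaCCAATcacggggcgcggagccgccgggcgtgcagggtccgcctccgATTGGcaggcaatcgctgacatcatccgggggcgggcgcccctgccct
TM7SF2: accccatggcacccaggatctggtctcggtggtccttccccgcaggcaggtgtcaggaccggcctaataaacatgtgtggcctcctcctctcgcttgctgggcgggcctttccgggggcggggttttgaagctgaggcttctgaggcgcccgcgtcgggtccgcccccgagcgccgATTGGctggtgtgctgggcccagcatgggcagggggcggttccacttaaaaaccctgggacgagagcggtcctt
SREBF2: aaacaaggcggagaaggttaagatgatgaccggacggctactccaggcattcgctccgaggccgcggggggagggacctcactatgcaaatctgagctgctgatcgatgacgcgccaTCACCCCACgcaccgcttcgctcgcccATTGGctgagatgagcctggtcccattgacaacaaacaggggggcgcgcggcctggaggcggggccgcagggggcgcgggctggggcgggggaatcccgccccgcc
The MVK window held 5 CCAAT boxes, MVD and FDPS 3 each, DHCR7 2, and TM7SF2 and SREBF2 1 each. By gene, the box was found for 23 of the 33. Of the genes with negative differences, TM7SF2, ACACA, ACACB, ACSL1, ACSS2, ELOVL1 and MSMO1 had it, and ACSL4 and AACS did not. FADS1 and FADS2, with positive differences, had none. A relation between the boxes and the differences was not tested. In SREBF2 the sterol element began 133 bases and the CCAAT box 106 bases upstream of the start.

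Among the regulators all 5 differences were positive, with a median of 0.11. That did not hold with every array left out: without replicate 1 of the cells without doxycycline, 3 were positive and 2 negative. Without doxycycline-treated replicate 1, 4 were positive and 1 negative. At an unadjusted p under 0.05, 1 of the 5 was higher (20.0%, against 7.57% of named genes). SREBF2 encodes SREBP-2, the main activator of the cholesterol genes, and lay at 8.58, 8.72 and 8.63 with doxycycline and at 8.82, 8.82 and 8.98 without it. Its groups did not overlap (difference 0.23, SE 0.08, 1.17-fold, limma adjusted p = 0.307). SREBF1, whose products act more on fatty acid genes, lay at 5.49, 5.73 and 5.54 with and at 5.75, 5.74 and 5.87 without doxycycline. There the highest array with doxycycline, replicate 2, all but met the lowest without it (difference 0.20, SE 0.09, limma adjusted p = 0.412). INSIG1, both an SREBP target and its brake, was at 0.11 (95% confidence interval -0.06 to 0.28), and its relative INSIG2 at 0.09 (-0.28 to 0.45). SCAP was at 0.03 (-0.16 to 0.23). The arrays measured mRNA, and processing of the SREBP proteins was not measured.

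Of the 15 fatty acid genes 8 had positive and 7 negative differences, with a median of 0.04. That median was 0.012 without doxycycline-treated replicate 1, 0.019 without doxycycline-treated replicate 3, 0.027 after centring of the arrays and 0.0078 without dim probe sets. None of the 15 passed the adjusted test, and FADS2, FADS1 and SCD, all desaturases, had the largest differences among them. FADS2, the delta-6 desaturase of polyunsaturated fatty acids, lay at 7.0, 7.06 and 7.13 with doxycycline and at 7.48, 7.40 and 7.52 without it (difference 0.40, SE 0.07, 1.32-fold, limma adjusted p = 0.0911). FADS1, the delta-5 desaturase, lay at 8.08, 8.03 and 8.11 with and at 8.36, 8.35 and 8.33 without doxycycline (difference 0.27, SE 0.06, 1.21-fold, limma adjusted p = 0.163). Both had narrow groups that did not overlap. They are neighbours on chromosome 11, on opposite strands, with RefSeq starts 599 and 800 bases apart (FADS2 has 2 in the table).

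SCD, the stearoyl-CoA desaturase, lay at 12.15, 11.95 and 12.24 with and at 12.39, 12.33 and 12.42 without doxycycline (difference 0.27, SE 0.09, limma adjusted p = 0.298). Its dimmer probe set was at 0.20 with overlapping groups. These 3 were the fatty acid genes with an unadjusted p under 0.05, all higher, which is 20.0% of the 15 against 7.57% of named genes.

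For the enzymes that supply acetyl-CoA and build the chain, the intervals of the differences all included 0. ACLY, which makes cytosolic acetyl-CoA from citrate, was at 0.15 with groups apart (95% confidence interval -0.02 to 0.33). ACSS2, which makes it from acetate, was at -0.09 (-0.33 to 0.14). FASN, fatty acid synthase, lay at 9.08, 9.12 and 9.22 with and at 9.21, 9.17 and 9.17 without doxycycline, a difference of 0.04 (-0.12 to 0.20). The acetyl-CoA carboxylases ACACA and ACACB were at -0.03 (-0.18 to 0.11) and -0.05 (-0.21 to 0.11). For FASN, ACACA and ACACB these intervals leave out log2 differences as large as those measured for MVK or MVD.

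The elongases ELOVL6, ELOVL5, ELOVL2 and ELOVL1 were at 0.12, 0.07, 0.12 and -0.03, and only ELOVL6 had groups apart (8.68 to 8.70 with and 8.74 to 8.86 without doxycycline). ELOVL2 lay below the median probe set on average, at 3.62 with and 3.74 without doxycycline, so a change there could be missed. Among the genes that activate acids with coenzyme A, ACSL4, which prefers arachidonic acid, was at -0.15 with groups apart, and ACSL1 at -0.21. AACS, which activates acetoacetate, was at -0.17 with groups barely apart (replicate 3 of each group was at 8.05). The intervals of ACSL4, ACSL1 and AACS all included 0 (-0.32 to 0.02, -0.45 to 0.03 and -0.39 to 0.05). Of the related synthetases outside the 36, ACSS1, ACSL6 and ACSL5 were at 0.11, 0.08 and -0.09, also with intervals that included 0.

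**Figure D3:**
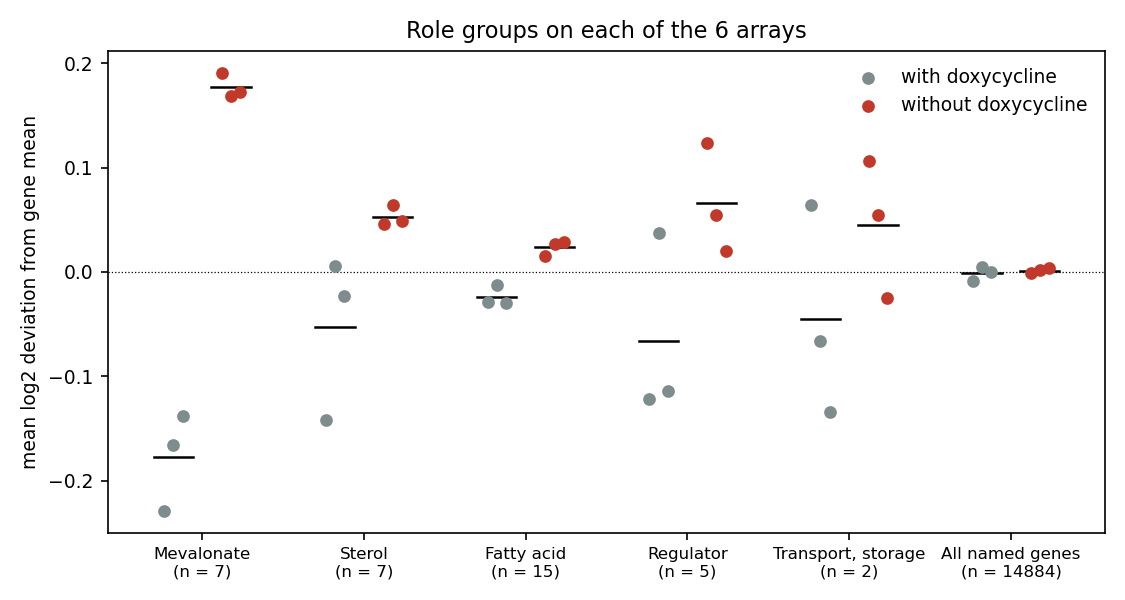
Mean over the genes of each role of their log2 deviation from the gene's own mean over 6 arrays, 1 point per array and a line at the group mean. The mevalonate genes lie at -0.23 to -0.14 on the arrays with doxycycline (grey) and 0.17 to 0.19 without it (red), the fatty acid genes within 0.03 of 0 on all arrays, and all named genes within 0.01.

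Averaged over the 7 mevalonate genes, each array without doxycycline lay 0.17 to 0.19 above the genes' own means, and each array with it 0.14 to 0.23 below. For the sterol enzymes the array with doxycycline closest to the other group was replicate 2, at 0.01, against 0.05 to 0.06 without doxycycline. For the regulators that array was at 0.04 and the other 2 with doxycycline were at -0.12 and -0.11, against 0.12, 0.06 and 0.02 without doxycycline, so the groups overlapped. Of the 2 transport and storage genes, STARD4, a cytosolic sterol carrier and SREBP-2 target, lay at 8.96, 8.92 and 8.75 with and at 9.10, 9.08 and 8.99 without doxycycline. Its groups were narrowly apart (difference 0.18, 95% confidence interval -0.01 to 0.37). SOAT1, which esterifies cholesterol for storage, lay at 8.28, 8.07 and 8.10 with and at 8.23, 8.15 and 8.08 without doxycycline, a difference of 0.004 (-0.20 to 0.21).

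**Figure D4:**
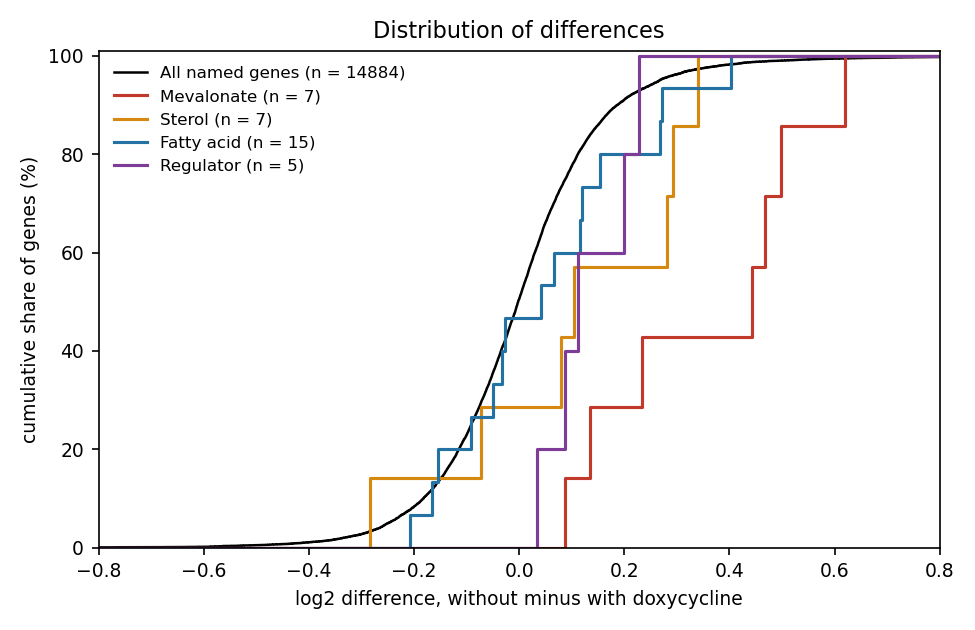
Cumulative share of genes (%) against the log2 difference without minus with doxycycline, for all 14884 named genes (black) and 4 roles; genes beyond 0.8 in either direction are outside the axis. The mevalonate curve starts at 0.09 and 4 of its 7 genes lie above 0.4, as do 1.80% of all named genes, while the fatty acid curve crosses the black one.

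By size, 12 of the 36 genes had a log2 difference above 0.2 (33.3%, against 8.93% of named genes) and 2, TM7SF2 and ACSL1, one below -0.2 (5.56%, against 8.40%). Above 0.4 were 5 (13.9%, against 1.80% of named genes): ACAT2, MVK, MVD, FDPS and FADS2. None was below -0.4, where 1.12% of named genes were.

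Of 62 measured genes from further lipid lists, PPARD was the only one to pass the adjusted test, and its difference was larger than that of any of the 36. At an unadjusted limma p under 0.05, 7 of the 62 were higher and 7 lower, where 7.57% and 6.87% of named genes were. Of 14 further isoprenoid and sterol enzymes 5 were measured and none passed the adjusted test; at an unadjusted p under 0.05, 2 were higher and 1 lower. ERG28, a scaffold of the sterol demethylation enzymes, and LBR were both at 0.18, and NUS1, a subunit of the dolichol-making prenyltransferase, and IDI2 were at -0.20 and -0.03. Of 18 further regulators of SREBP, LXR and ChREBP and their relatives 11 were measured; 1 passed the adjusted test, and at an unadjusted p under 0.05, 1 was higher and 2 were lower. PPARD, a nuclear receptor for fatty acids, rose from 8.06, 7.90 and 8.15 with doxycycline to 8.71, 8.63 and 8.77 without it (difference 0.66, SE 0.09, 1.58-fold, limma adjusted p = 0.0475). Its call was lost after quantile normalization, after centring of the arrays and with any 1 array left out. UFD1, part of the complex that extracts proteins from the endoplasmic reticulum for degradation, was at 0.13. MLXIPL, which encodes the carbohydrate-sensing factor ChREBP, lay at 3.54, 3.67 and 3.68 with and at 3.22, 3.20 and 3.28 without doxycycline, below the median probe set on all 6 arrays (difference -0.40, limma adjusted p = 0.0930). PPARG was at -0.22.

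In fatty acid synthesis and elongation, 14 of 23 further genes were measured and none passed the adjusted test. At an unadjusted p under 0.05, 1 was higher and 2 were lower, where 7.57% and 6.87% of named genes were. MID1IP1, an activator of acetyl-CoA carboxylase, lay at 8.66, 8.51 and 8.73 with and at 9.06, 8.91 and 8.95 without doxycycline (difference 0.34, limma adjusted p = 0.193), although its dimmer probe set was at -0.03. PGD, which supplies NADPH, was at 0.10. HACD3, a dehydratase of the elongation cycle, lay at 11.26, 11.28 and 11.25 with and at 11.02, 10.94 and 11.04 without doxycycline (difference -0.26, limma adjusted p = 0.184). SCD5, the second stearoyl-CoA desaturase, was at -0.24, opposite in sign to SCD, and the desaturase relative FADS3 at 0.02. Of 18 further sterol transport and oxysterol genes 11 were measured and none passed the adjusted test. By the unadjusted rule 1 was higher and 2 were lower, again beside 7.57% and 6.87% of named genes. VLDLR, a lipoprotein receptor, was at 0.17 and CH25H, which makes 25-hydroxycholesterol, at 0.16. The oxysterol-binding protein relatives OSBPL8 and OSBPL5 were at -0.24 and -0.21.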

How the data were processed

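In all, 6 arrays were compared, 3 per group. The deposited table holds log2 expression values per probe set; per the submitters' processing notes the authors used Partek. Its version, the background correction, the normalization and the build are not stated in these sources. The values run from 2.12 to 14.3, which points to base 2. Gene names came from GEO's annotation of the platform: of 53617 probe sets, 16098 had 1 gene symbol and 37519 none. The whole table was fitted with limma 3.58.1 in R 4.3.3 (lmFit, eBayes), without doxycycline minus with, with no covariate or filter, and p-values were adjusted by Benjamini-Hochberg over all of them. The procedure was tested on simulated data. Genes and lists were chosen with earlier results of these data known. Values of every array are given for genes with an unadjusted p under 0.05 and the 2 of smallest p in each role; in each further list the 2 of smallest p in each direction are named, and any other gene named was chosen after its values were seen. The number of arrays limits the precision, no detection calls were used, and levels are not compared between genes. Alternatives were quantile normalization, median centring, trend and robust moderation, a filter on dim probe sets, the replicate number as a block, each array left out, and the mean of a gene's probe sets.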

Additional observations from a re-analysis of the deposited data

How the results depend on the processing

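Of the 36 genes, 30 kept their direction in all alternatives run. SOAT1 reversed to -0.011 with arrays centred on their medians, and with 1 array left out 6 genes near 0 changed sign in at least 1 case: SOAT1 (-0.037 to 0.070), SCAP (-0.016 to 0.095), ACSS2 (-0.157 to 0.0083), ELOVL1 (-0.048 to 0.010), NSDHL (-0.025 to 0.202) and INSIG2 (-0.030 to 0.256). Genes of the 36 past the adjusted limma threshold numbered 1 with quantile normalization, 1 with trend and robust moderation, 3 without dim probe sets and 0 otherwise. Without dim probe sets, both the limma fit and its adjustment cover fewer probe sets. At an unadjusted p under 0.05 they numbered 9 to 13 with 1 array left out. Over all probe sets the adjusted count of 183 became 385 with trend and robust moderation, 311 without dim probe sets and 0 to 15 with any 1 array left out, where fewer arrays remain. Of the 62 further lipid genes 0 passed with quantile normalization, with centred arrays, with the replicate block and with any 1 array left out, and 8 to 11 had an unadjusted p under 0.05 with 1 array left out. The median of the mevalonate genes was 0.36 with the mean of all probe sets of a gene and 0.37 to 0.46 with 1 array left out. That of the sterol enzymes was then 0.071 to 0.202 (0.202 without doxycycline-treated replicate 2), and that of the fatty acid genes 0.012 (without doxycycline-treated replicate 1) to 0.047, with 0.053, 0.027 and 0.0078 under quantile normalization, centring and the filter on dim probe sets. The cause was not tested. KDM4C was at 1.24 to 1.29 with 1 array left out.

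The values gave no sign that the replicate numbers pair the arrays. Same-numbered arrays had correlations of -0.01, -0.01 and 0.04 between their deviations from the group means, and differently numbered ones -0.03 to 0.04. Correlations over all probe sets cannot show that the samples were unpaired. With the replicate block 0 probe sets and 0 of the 36 genes passed the adjusted test (13 of the 36 at an unadjusted p under 0.05), and KDM4C, at 1.27, had a limma adjusted p of 0.118.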

Other observations

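Genes that burn or store fatty acids had differences on both sides of 0. Of 19 genes of fatty acid oxidation 9 were measured, with a median log2 difference of -0.02, and none passed limma's adjusted test. At an unadjusted p under 0.05, 1 was higher, where 7.57% of named genes were. ETFDH, which passes electrons from fatty acid oxidation to the respiratory chain, lay at 7.70, 7.60 and 7.70 with doxycycline and at 7.80, 7.80 and 7.95 without it (difference 0.18, limma adjusted p = 0.387). ECI1 and ECI2, isomerases for unsaturated acids, were at 0.20 and -0.35 with overlapping groups, and CPT1C, the brain form of carnitine palmitoyltransferase, was at -0.12 with groups apart. CPT1A, the form found in most tissues, was at -0.02.

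Of 17 triglyceride and lipid droplet genes 12 were measured, with a median of -0.03, and none passed the adjusted test. At an unadjusted p under 0.05, 1 was higher, where 7.57% of named genes were. That gene was HILPDA, an inhibitor of droplet lipolysis, at 7.90, 7.83 and 7.82 with doxycycline and 8.06, 8.03 and 8.03 without it (difference 0.19, limma adjusted p = 0.284). PLIN2, a droplet coat protein, was at 0.16, and LPIN1, a phosphatidate phosphatase, and MGLL, a monoglyceride lipase, were at -0.13 and -0.08.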
